A study of Homo sapiens with 6 samples.

Results

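The integrin and laminin chain genes are the genes for the cell surface receptors that hold epithelial cells to their matrix and for the basement membrane proteins that many of these receptors bind. They were chosen by gene symbol, as 37 of the 58735 genes in the count table, by a rule that uses no measured value, although the set was proposed with earlier results of these data known. They comprise 18 integrin alpha chains, 8 integrin beta chains, 5 laminin alpha chains, 4 laminin beta chains and 2 laminin gamma chains. All 37 symbols were found in the table. RNA came from Het1A, a human oesophageal epithelial line immortalised with the SV40 large T antigen. In the 3 bile acid libraries, cells had spent 10 min a day, for 5 days, in medium acidified to pH 4.0 with a 100 µM bile acid mix (glycocholic, taurocholic, glycodeoxycholic, glycochenodeoxycholic and deoxycholic acid). Cells of the 3 control libraries were given the solvent, DMSO at 0.1%. Both groups were in 1% serum, beginning 48 h ahead of the first exposure and lasting to the end, and RNA was taken 24 h after the last one. Acidification is given for the bile acid medium alone, so effects of acid and of bile acids cannot be told apart. Het1A is a single immortalised line, grown here in plates without stroma. The labels call the libraries of each group biological replicates 1 to 3, without saying how the cultures were separated, and p-values measure the spread between these libraries.

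An integrin is a pair of 1 alpha and 1 beta chain. The pair decides what the cell binds, since the chains that join the beta chain ITGB1 include receptors for laminin, collagen and fibronectin, while those that join ITGAV read a short motif shared by fibronectin, vitronectin and latent TGF-beta. Laminins are cross-shaped trimers of 1 alpha, 1 beta and 1 gamma chain. They form the first layer of a basement membrane, and in stratified epithelium the receptor of ITGA6 and ITGB4 ties the laminin that contains LAMA3 and LAMB3 to the keratin filaments at hemidesmosomes.

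The 6 libraries held 27008714 to 28497721 counts with bile acids and 21006677 to 26218597 in controls. Control 2 stood apart from the others: it had counts for 19101 genes, against 24174 to 25337 in the other 5 libraries, and a TMM scaling factor of 0.851, against 1.01 to 1.07. The main comparisons are therefore given with control 2 and without it. No pair of libraries held identical values. The labelled cell type was checked against markers. The simple epithelial keratins were high, with KRT8 at 325 to 654 CPM and KRT18 at 193 to 658 CPM over the 6 libraries. The other listed epithelial markers were lower, with KRT19 at 52.7 to 148, EPCAM at 37.9 to 74.7 and CDH1 at 6.50 to 21.0 CPM. The mesenchymal markers VIM and CDH2 were also present, at 102 to 213 and 51.3 to 73.1 CPM, above CDH1 in every library. The 7 basal squamous markers summed to 0.914 to 1.25 CPM with bile acids and 0.755 to 1.18 CPM in controls, and TP63 and KRT15 had at most 3 counts in every library. The cells thus carried epithelial keratins beside VIM and CDH2, and nearly none of the markers of basal oesophageal epithelium. CPM are counts scaled to the total of a library with TMM factors, and are used to compare libraries. FPKM, which are also scaled to gene length by the authors, are used to compare genes. The deposited FPKM of control 2 imply a divisor of 0.999 times its counts, against 1.18 to 1.22 times in the other libraries, so FPKM are compared between genes within a library and not between libraries.

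Het1A cells held RNA of a broad set of these chains. Of the 37 genes, 29 passed the filter on low counts (13 integrin alpha, 6 integrin beta, 5 laminin alpha, 3 laminin beta and 2 laminin gamma), 4 were silent and 4 were present at a trace. The most abundant chain of each kind was ITGA3, ITGB1, LAMA5, LAMB2 and LAMC1. No chain passed edgeR's test for a difference between bile acid and control libraries, with or without control 2, and DESeq2 called 1, ITGB5, only without control 2. ITGB5, a vitronectin receptor chain, lay higher in all 3 bile acid libraries than in all 3 controls, as did 5.29% of all genes, with a log2 fold change of 0.60 with 6 libraries and 0.64 without control 2. LAMB2 lay lower in all 3 bile acid libraries by a narrow gap, as did 4.89% of all genes. Of the tested chains 23 of 29 had a positive fold change with 6 libraries (48.8% of all genes), and 15 of 30 without control 2 (50.8% of all genes). In bulk RNA, a change in the number of cells of one kind and a change in RNA per cell cannot be told apart.

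The silent chains, with at most 3 counts in every library, were ITGA8, ITGAD, ITGB6 and LAMB4. LAMB4 is a little studied laminin beta chain. ITGA8 is a nephronectin receptor chain best known from kidney development and ITGAD belongs to leukocytes. ITGB6 is an epithelial partner of ITGAV that activates latent TGF-beta, and it had 1, 0 and 1 counts with bile acids and 3, 0 and 0 in controls. A floor of 3 counts corresponds to 0.105 to 0.111 CPM in the bile acid libraries and 0.114 to 0.143 CPM in controls before TMM scaling, which covers counting error only. The trace chains were ITGA9, ITGAL, ITGAM and ITGB7, with 0 to 18 counts per library. ITGAL, ITGAM and ITGB7 are chains of leukocyte receptors, and ITGA9 is a receptor chain for tenascin and other matrix proteins. ITGA9 passed the filter once control 2 was left out, with a log2 fold change of -0.73 ± 0.68 (SE, edgeR adjusted p = 0.858). ITGB7 shares 42.1% of its exonic length with ZNF740 on the opposite strand. The sources used here do not say whether reads were counted by strand, so its 0 to 8 counts cannot be assigned. With a limit of 10 counts instead of 3 the number of silent chains was 7, and with a limit of 0.1 FPKM it was 9. These 9 include LAMA2, which passed the filter on low counts but averaged 0.0358 FPKM.

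**Figure D1:**
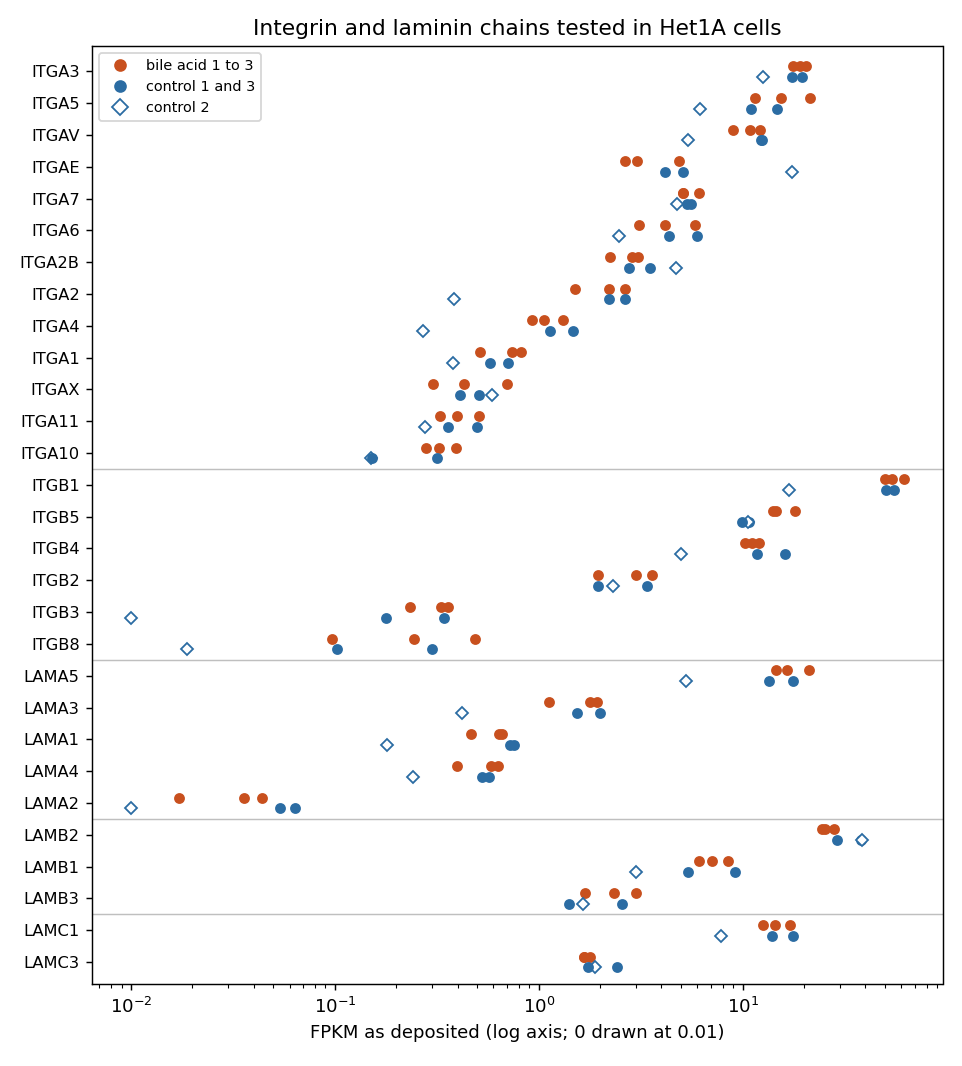
Deposited FPKM on a log axis for the 29 chains tested, grouped from top to bottom as integrin alpha, integrin beta, laminin alpha, laminin beta and laminin gamma and ordered by mean. Each point is a library: filled orange for bile acid, filled blue for controls 1 and 3, open diamond for control 2, with 0 drawn at 0.01. LAMA5 stands above the other laminin alpha chains and ITGB1 above the other integrin beta chains in each library. Control 2 is drawn left of the filled points for ITGB1, LAMA5 and LAMC1 but not for ITGB5, ITGAE or LAMB2. FPKM are not compared between libraries, but by CPM control 2 was also the lowest library for ITGB1, LAMA5 and LAMC1. By CPM it was not the lowest for ITGB5, ITGAE or LAMB2.

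Among integrin alpha chains, the laminin, fibronectin and vitronectin receptor chains led. ITGA3, the laminin receptor chain of most epithelia, averaged 17.8 FPKM over the 6 libraries and took 25.8% to 30.2% of the summed alpha chain FPKM with bile acids and 22.6% to 27.9% in controls. ITGA5, the fibronectin receptor chain, followed at 13.4 FPKM and ITGAV at 10.3 FPKM. Each of the 3 was above the next in 5 of 6 libraries, and their ranges overlapped. Next came ITGAE at 6.21, ITGA7 at 5.33 and ITGA6 at 4.31 FPKM, of which ITGA7 and ITGA6 are also laminin receptor chains. ITGA7 was below ITGAE in 1 of 6 libraries only, control 2, so their order by mean rests on that library. The collagen receptor chains were lower, with ITGA2 at 1.93, ITGA1 at 0.623, ITGA11 at 0.395 and ITGA10 at 0.270 FPKM. ITGA4, a receptor chain for fibronectin and VCAM1, averaged 1.03 FPKM.

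None of the 13 integrin alpha chains passed edgeR's or DESeq2's test, and in each the bile acid and control libraries overlapped. ITGA3 had 221, 203 and 234 CPM in bile acid libraries 1 to 3, against 218, 145 and 197 CPM in controls 1 to 3, and control 2 was the lowest library. The log2 fold change in edgeR was 0.24 ± 0.21 (SE) with 6 libraries and 0.093 ± 0.14 without control 2. ITGA5 had 191, 102 and 136 CPM in bile acid libraries 1 to 3, against 128, 54.9 and 95.02 CPM in controls 1 to 3. Bile acid library 1 was the highest and control 2 the lowest, but bile acid library 2 lay below control 1. ITGA5 averaged 143 ± 44.6 CPM with bile acids and 92.7 ± 36.7 CPM in controls (SD, n = 3 each). In edgeR's quasi-likelihood test the log2 fold change of ITGA5 was 0.63 ± 0.36 (SE, Benjamini-Hochberg adjusted p = 0.911), and 0.37 ± 0.24 without control 2 (edgeR adjusted p = 0.768). ITGA5 thus kept a positive value in both fits, and it ranged from 0.37 to 0.94 over all alternatives and libraries left out. ITGAV had 117, 86.96 and 104 CPM in bile acid libraries 1 to 3, against 115, 52.1 and 118 CPM in controls 1 to 3, and controls 1 and 3 lay at the top of the bile acid range. ITGAV was at 0.11 ± 0.32 on the log2 scale with 6 libraries and at -0.17 ± 0.15 without control 2, so its sign depended on that library.

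With 6 libraries, ITGAE had the largest fold change in size of the 29 chains, and it was largely set by control 2. ITGAE, which on T lymphocytes pairs with ITGB7 to bind E-cadherin, was singled out after its values were seen. It had 20.8, 38.1 and 23.6 CPM in bile acid libraries 1 to 3, against 38.8, 136 and 31.8 CPM in controls 1 to 3. Control 2 held 3.86 times the mean of the other 2 controls, and the bile acid libraries overlapped with controls 1 and 3. The log2 fold change was -1.32 ± 0.57 with 6 libraries (edgeR adjusted p = 0.911) and -0.35 ± 0.24 without control 2 (edgeR adjusted p = 0.791). The 7 leukocyte markers summed to 13.2 to 17.2 CPM with bile acids and 10.3 to 13.0 CPM in controls, with PTPRC, CD3E and LYZ at 0 in every library, and the partner chain ITGB7 had no counts in control 2. Exons of ITGAE overlap those of HASPIN and of an antisense RNA over 7.59% of their length on the opposite strand, and HASPIN itself had 40.0, 36.0 and 36.9 CPM with bile acids and 39.5, 20.3 and 35.3 CPM in controls 1 to 3.

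Other alpha chains known from blood cells were also counted. ITGA2B, which with ITGB3 forms the platelet fibrinogen receptor, had 14.6, 19.9 and 18.6 CPM with bile acids and 22.4, 30.6 and 17.7 CPM in controls 1 to 3. ITGAX, a partner of ITGB2 on myeloid cells, had 2.53 to 5.77 CPM with bile acids and 3.32 to 4.93 CPM in controls. The 4 platelet markers summed to 2.56 to 3.55 CPM with bile acids and 1.90 to 4.24 CPM in controls, with PF4 at 0 and GP9 at no more than 3 counts in every library. Nearly all of that sum came from GP1BA, a chain of the platelet receptor for von Willebrand factor, which had 77, 70 and 97 counts with bile acids and 118, 34 and 71 counts in controls 1 to 3. Their part in the ITGA2B counts was not tested. The other alpha chains ranged in log2 fold change from -0.057 for ITGAX to 0.70 for ITGA10 with 6 libraries when ITGAE and ITGA2B are set aside. ITGA2B was at -0.41 ± 0.26 (SE) with 6 libraries and -0.17 ± 0.20 without control 2, which held 1.52 times the mean of the other controls. ITGAX changed sign, to 0.097 ± 0.35 without control 2. ITGA2, ITGA4, ITGA6 and ITGA11 were positive with 6 libraries and negative without control 2, where they were -0.15, -0.20, -0.20 and -0.011. ITGA10 and ITGA1 stayed positive, at 0.53 ± 0.38 and 0.15 ± 0.23 (SE). Exons of ITGA1 are overlapped by those of PELO and a pseudogene on the same strand over 5.63% of their length, so some of its counts cannot be told from theirs. ITGA7, at 0.087 ± 0.17 with 6 libraries and 0.045 ± 0.15 without control 2, spanned 38.04 to 45.8 CPM with bile acids and 35.5 to 40.8 CPM in controls.

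ITGB1 was the main beta chain, and ITGB5 the beta chain whose groups did not overlap. ITGB1, the common partner of most laminin, collagen and fibronectin receptor chains, averaged 48.05 FPKM, above ITGB5 at 13.04 and ITGB4 at 11.05 FPKM. It was the highest beta chain in 6 of 6 libraries. ITGB5 was above ITGB4 in 4 of 6 libraries, and the ranges of the 2 overlapped. ITGB2, the beta chain of leukocyte integrins, averaged 2.70 FPKM, while ITGB3 and ITGB8 averaged 0.241 and 0.208 FPKM.

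ITGB5 pairs with ITGAV to bind vitronectin and lies at chromosome 3, 124761948 to 124901418 on the minus strand (GRCh38, as in the count table), where its 6447 bases of exon are overlapped by no other annotated gene. The sequence before its start is shown because ITGB5 was the only chain higher in every bile acid library than in every control, with and without control 2. It is the 250 bases upstream of the RefSeq start at chr3:124901419-124901668 (GRCh38.p14, minus strand), which is also the start in the count table. Capitals mark the GC box GGGCGG, searched on both strands, of which it holds 2.
ITGB5: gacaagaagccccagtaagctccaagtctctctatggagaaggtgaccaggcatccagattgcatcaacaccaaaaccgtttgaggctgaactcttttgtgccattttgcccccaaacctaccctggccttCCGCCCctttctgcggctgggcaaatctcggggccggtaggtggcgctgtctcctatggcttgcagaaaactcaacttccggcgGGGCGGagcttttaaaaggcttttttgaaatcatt
A GC box was present in 42.6% of 35116 RefSeq promoter windows of the same length and in 13 of the 26 integrin and laminin promoters that could be matched. The ITGB5 window held no match to the AP-1 motif TGANTCA, the TEAD motif GGAATG, the CRE motif TGACGTCA or the TATA motif TATAAA. Over the 26 windows these motifs were found in 1, 4, 0 and 1, and over all windows in 6.57%, 11.9%, 1.65% and 10.7%. The matches describe letters only and no factor was measured here.

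ITGB5 had 111, 107 and 137 CPM in bile acid libraries 1 to 3, against 79.4, 80.8 and 73.5 CPM in controls 1 to 3. All 3 bile acid libraries lay above all 3 controls, and control 2 lay close to control 1. ITGB5 averaged 118 ± 16.5 CPM with bile acids and 77.9 ± 3.89 CPM in controls (SD, n = 3 each). Its log2 fold change was 0.60 ± 0.18 (SE) with 6 libraries, and edgeR's quasi-likelihood test gave a Benjamini-Hochberg adjusted p of 0.911 over all genes. Without control 2 it was 0.64 ± 0.15 with an edgeR adjusted p of 0.296. DESeq2 called it only without control 2, at a log2 fold change of 0.64 and an adjusted p of 0.0253, against an adjusted p of 0.770 with 6 libraries. Over all alternatives the log2 fold change of ITGB5 ran from 0.49 to 0.68 and its adjusted p from 0.0253 to 1.00. As a share of the summed beta chain FPKM of a library, ITGB5 took 17.1%, 18.4% and 19.2% with bile acids, against 12.5%, 30.5% and 13.3% in controls 1 to 3. By this share control 2 stood above the rest, and ITGB1 and ITGB4, which enter the same sum, were low in that library.

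ITGB1 had 383, 351 and 435 CPM in bile acid libraries 1 to 3, against 379, 119.6 and 348 CPM in controls 1 to 3. Controls 1 and 3 lay inside or just below the bile acid range, and control 2 was at 0.329 times their mean. The log2 fold change of ITGB1 was 0.47 ± 0.41 with 6 libraries (edgeR adjusted p = 0.911) and 0.11 ± 0.15 without control 2. ITGB4, the hemidesmosome chain, had 96.2, 81.7 and 87.7 CPM in bile acid libraries 1 to 3, against 124, 39.7 and 91.2 CPM in controls 1 to 3. All 3 bile acid libraries lay below control 1, and bile acid library 1 above control 3. ITGB4 was at 0.058 ± 0.38 on the log2 scale with 6 libraries and at -0.27 ± 0.16 without control 2, a change of sign, and its partner ITGA6 was 0.058 ± 0.36 and -0.20 ± 0.24. ITGB2 had 15.6 to 28.6 CPM with bile acids and 15.3 to 26.3 CPM in controls, and its groups overlapped. ITGB3 had 48, 33 and 53 counts with bile acids and 48, 0 and 21 counts in controls 1 to 3, and ITGB8, another partner of ITGAV, had 8.67, 1.72 and 4.35 CPM with bile acids and 5.21, 0.336 and 1.79 CPM in controls 1 to 3. Both were lowest in control 2 and their libraries overlapped without it. Of the exonic length of ITGB3, 51.6% is shared on the same strand with a read-through gene that had 0 counts in every library. How reads on the shared part were counted is not given, so the counts and FPKM of ITGB3 may be too low.

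**Figure D2:**
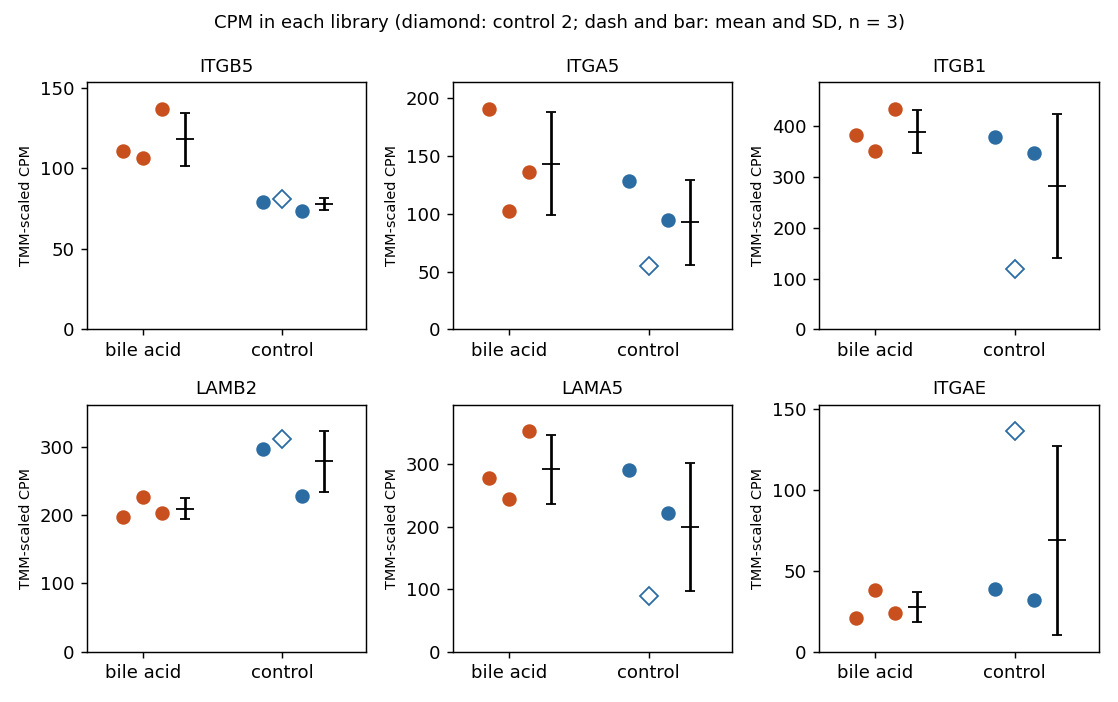
TMM-scaled CPM of 6 chains in each library, with bile acid libraries on the left and controls on the right of each panel. The open diamond is control 2, and the dash with its bar is the mean and SD of 3 libraries. ITGB5 separates the groups, LAMB2 does so with the opposite sign and a narrow gap, and for ITGA5, ITGB1, LAMA5 and ITGAE control 2 is the control farthest from the others.

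The laminin alpha chains were led by LAMA5. LAMA5, the alpha chain of most adult epithelial basement membranes, averaged 14.8 FPKM, against 1.47 for LAMA3, 0.571 for LAMA1, 0.492 for LAMA4 and 0.0358 for LAMA2. LAMA3 belongs to the anchoring laminin of stratified epithelium, LAMA1 to early embryonic basement membranes, LAMA4 to those of vessels and LAMA2 to those of muscle and nerve. LAMA5 made up 84.4%, 87.8% and 86.7% of summed laminin alpha FPKM with bile acids and 83.9%, 86.2% and 82.6% in controls 1 to 3. The share thus lay between 82.6% and 87.8% in all 6 libraries, control 2 included.

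LAMA5 had 278, 244 and 352 CPM in bile acid libraries 1 to 3, against 289.6, 88.6 and 222 CPM in controls 1 to 3. Control 1 lay inside the bile acid range, control 3 just below it and control 2 far below. LAMA5 averaged 292 ± 55.3 CPM with bile acids and 200.01 ± 102 CPM in controls (SD, n = 3 each), with a log2 fold change of 0.54 ± 0.41 (edgeR adjusted p = 0.911), and 0.20 ± 0.18 without control 2 (edgeR adjusted p = 0.857). LAMA3 had 30.96, 19.4 and 33.1 CPM in bile acid libraries 1 to 3, against 33.5, 7.28 and 26.03 CPM in controls 1 to 3, and its log2 fold change was 0.32 ± 0.51 with 6 libraries and -0.088 ± 0.23 without control 2. LAMA1 and LAMA2 lay below both remaining controls in every bile acid library once control 2 was left out. LAMA1, at chromosome 18, 6941744 to 7117814 on the minus strand, had 11.9, 8.66 and 12.3 CPM in bile acid libraries 1 to 3, against 13.8, 3.36 and 13.2 CPM in controls 1 to 3. Its log2 fold change was 0.11 ± 0.49 with 6 libraries and -0.29 ± 0.21 without control 2 (edgeR adjusted p = 0.809), and 11.1% of its exonic length is overlapped by antisense genes. LAMA2, at chromosome 6, 128883141 to 129516569 on the plus strand, had 15, 12 and 6 counts with bile acids and 21, 0 and 15 counts in controls 1 to 3, which is 0.535, 0.439 and 0.209 CPM with bile acids and 0.755, 0 and 0.639 CPM in controls 1 to 3. Its log2 fold change was -0.28 ± 1.01 with 6 libraries and -0.81 ± 0.58 without control 2 (edgeR adjusted p = 0.806). LAMA4 was at 0.28 ± 0.37 with 6 libraries and 0.0089 ± 0.25 without control 2.

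Of the laminin beta chains LAMB2 was the most abundant, and its bile acid libraries were the lower ones. LAMB2 averaged 30.6 FPKM, above LAMB1 at 6.55 and LAMB3 at 2.11 FPKM. LAMB1 and LAMB2 are sister chains that join the same alpha and gamma chains, and LAMB3 pairs with LAMA3. LAMB2 lies at chromosome 3, 49121114 to 49133118 on the minus strand, with no other annotated gene over its exons. Its upstream sequence is shown as the counterpart of that of ITGB5, since its libraries separate with the opposite sign. It is 182 bases at chr3:49133119-49133300 (RefSeq, GRCh38.p14, minus strand) that precede both the RefSeq start and the start in the count table, and nothing in it is in capitals. The whole RefSeq window of 250 bases holds 1 GC box, at 68 bases before the RefSeq start, in the 68 bases that are not shown because they lie inside the gene in the count table. LAMB2 is thus among the 13 promoters with a GC box, and none of the other 4 motifs was found in its window.
LAMB2: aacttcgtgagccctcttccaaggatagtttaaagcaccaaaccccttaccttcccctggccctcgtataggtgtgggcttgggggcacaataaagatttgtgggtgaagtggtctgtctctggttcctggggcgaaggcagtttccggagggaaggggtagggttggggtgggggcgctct
LAMB2 had 198, 227 and 204 CPM in bile acid libraries 1 to 3, against 297, 311 and 228 CPM in controls 1 to 3. All bile acid libraries lay below all controls, but the highest of them, bile acid library 2, was next to control 3. LAMB2 averaged 209.6 ± 15.4 CPM with bile acids and 279 ± 44.2 CPM in controls (SD, n = 3 each). The log2 fold change of LAMB2 was -0.41 ± 0.20 (SE, edgeR adjusted p = 0.911), and -0.32 ± 0.15 without control 2 (edgeR adjusted p = 0.658). Over all alternatives its log2 fold change ran from -0.53 to -0.30 and its adjusted p from 0.611 to 1.00.

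LAMB1 had 67.6, 58.3 and 81.2 CPM in bile acid libraries 1 to 3, against 85.6, 28.6 and 50.7 CPM in controls 1 to 3, and its libraries overlapped with and without control 2. The log2 fold change of LAMB1 was 0.33 ± 0.38 with 6 libraries and 0.028 ± 0.22 without control 2. LAMB2 was 73.7%, 76.9% and 68.7% of summed laminin beta FPKM with bile acids, against 78.1%, 89.3% and 78.4% in controls 1 to 3. LAMB1 was 21.2%, 16.6% and 23.1% with bile acids, against 19.0%, 6.91% and 14.7% in controls. The LAMB2 shares did not overlap between the groups, by a narrow gap of 76.9% against 78.1%, and the LAMB1 shares did. No matching figure over all genes was computed for such shares. By CPM scaled without control 2, LAMB2 itself overlapped, at 235.2 in bile acid library 2 and 235.1 in control 3. LAMB3 had 9.34, 12.9 and 16.5 CPM in bile acid libraries 1 to 3, against 7.55, 9.07 and 13.8 CPM in controls 1 to 3, and its log2 fold change was 0.35 ± 0.32 and, without control 2, 0.29 ± 0.30.

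Of the laminin gamma chains, LAMC1, found in most laminins, averaged 13.9 FPKM, and LAMC3, a chain of fewer tissues, 1.86 FPKM. LAMC1 had 143, 124 and 167 CPM in bile acid libraries 1 to 3, against 169.8, 77.00 and 135 CPM in controls 1 to 3. Its bile acid libraries overlapped with controls 1 and 3, and its log2 fold change was 0.19 ± 0.30 with 6 libraries and -0.064 ± 0.16 without control 2. LAMC3 had 14.9, 15.9 and 14.9 CPM in bile acid libraries 1 to 3, against 21.03, 16.9 and 15.2 CPM in controls 1 to 3. The bile acid libraries lay close together at the lower end of the controls, with log2 fold changes of -0.22 ± 0.20 with 6 libraries and -0.24 ± 0.19 without control 2. LAMC1 made up 87.6% to 91.0% of summed gamma chain FPKM with bile acids and 80.4% to 88.9% in controls.

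Across the families, edgeR called 0 of 29 chains with 6 libraries, where it called 0 of 17743 genes (0.0%). At an unadjusted p under 0.05 there was 1 chain, ITGB5, against 588 of all genes (3.31%), and limma-voom also called 0 genes, with 1 chain and 528 genes (2.98%) at an unadjusted p under 0.05. DESeq2 called 14 of 20188 genes (0.0693%), none of them a chain, with 2 of 37 chains, ITGB5 and ITGAE, and 977 of 31014 genes (3.15%) at an unadjusted p under 0.05. Without control 2, edgeR tested 30 chains, ITGA9 being added, and called 0, against 1 of 18274 genes (0.00547%), with 1 chain and 1459 genes (7.98%) at an unadjusted p under 0.05. DESeq2 without control 2 called 1 of 29 chains, ITGB5, against 148 of 17097 genes (0.866%), of which 136 were higher (0.795%) and 12 lower (0.0702%). At an unadjusted p under 0.05 it had 1 of 37 chains and 1370 of 30858 genes (4.44%). The background without control 2 was itself above that with 6 libraries.

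With 6 libraries, 23 of 29 chains had a positive log2 fold change, against 48.8% of all genes, and their median was 0.22 against -0.01. Without control 2, 15 of 30 were positive, against 50.8% of all genes, and the median was -0.0012 against 0.0046. The bile acid libraries lay wholly above the controls for 1 of 29 chains, ITGB5 (5.29% of all genes), and wholly below for 1 of 29, LAMB2 (4.89% of all genes). Without control 2 they lay above for 1 of 30, ITGB5 (12.6% of all genes), and below for LAMA1 and LAMA2, 2 of 30 (12.1% of all genes). LAMB2 is not among these because TMM factors fitted without control 2 put it at 235.2 CPM in bile acid library 2 and 235.1 CPM in control 3. Each of the 4 shares of chains was below that of all genes.

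**Figure D3:**
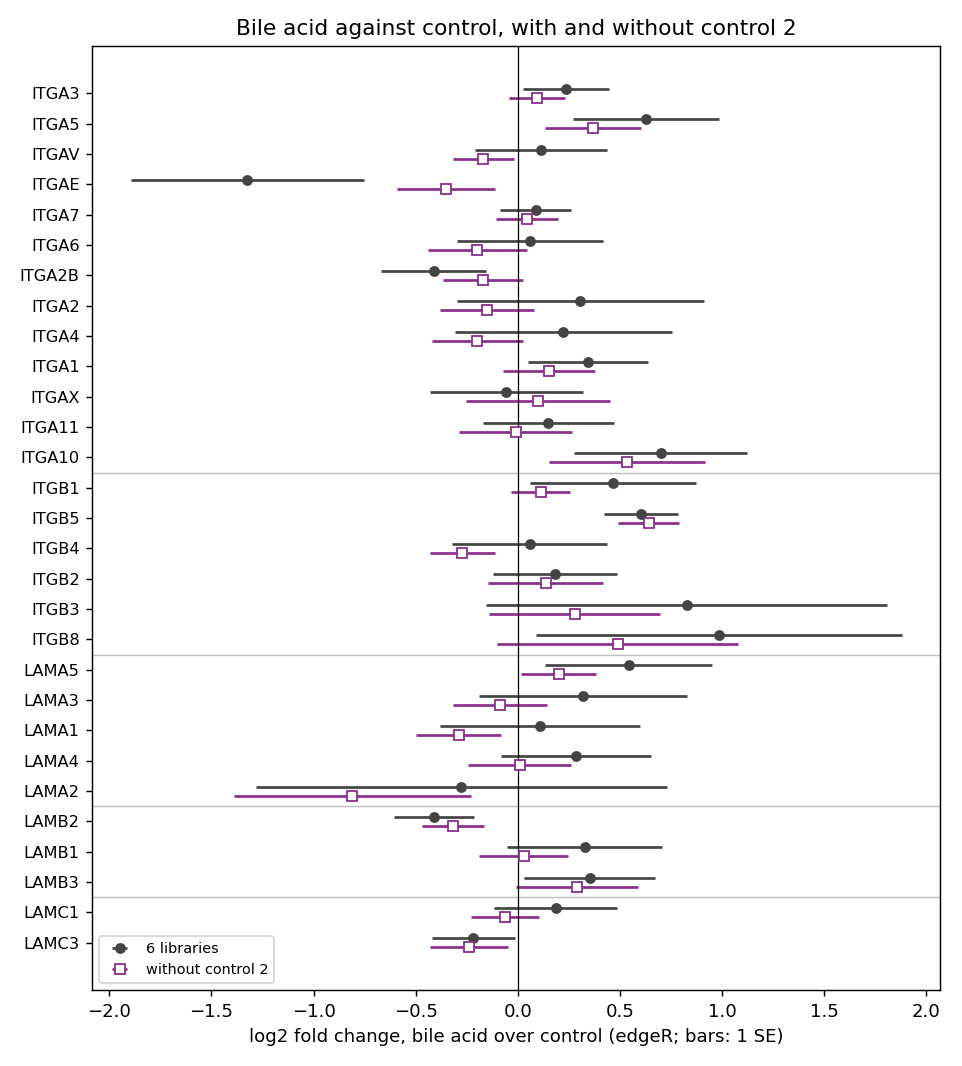
edgeR log2 fold changes of bile acid over control for the 29 chains tested, grouped as integrin alpha, integrin beta, laminin alpha, laminin beta and laminin gamma, with bars of 1 SE. Filled circles use 6 libraries and open squares leave out control 2. The circles lie right of 0 for 23 of 29 chains, the squares are spread around 0, and ITGB5 keeps its place.

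The fold changes of the chains moved with 1 control library. Control 2 was the lowest of the 6 libraries for 20 of 29 chains, against 41.8% of all genes. It was below the mean of controls 1 and 3 for 24 of 29 chains, and by more than 1 on the log2 scale for 14. The 5 chains above that mean were ITGA2B, ITGAE, ITGAX, ITGB5 and LAMB2. The median deviation of control 2 from the other controls, in log2 CPM, was -0.999 over the chains and -0.078 over all genes. Gene length moved with it. All genes were split by length into 4 groups of about equal size. The median deviation of control 2 was -0.58 in the group of the longest genes and 0.55 in that of the shortest. Bile acid library 2 had a smaller trend in the same direction, at -0.17 in the longest group and 0.18 in the shortest. Bile acid library 1 was at 0.041 and -0.088, and bile acid library 3 at -0.024 and 0.0030. Leaving out control 2 therefore keeps a library with a length trend in the comparison. The chains are long, with a median of 7594 bases against 4414 for all genes tested, and 17 of 29 fall in the group of the longest genes. The rank correlation between length and the deviation of control 2 was -0.39 over the 29 chains and -0.33 over all genes, as a description within 1 library. Removing a length trend from each library left a median log2 fold change of 0.11 for the chains. The part of length, or of any other feature of control 2, in the fold changes was not tested further.

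**Figure D4:**
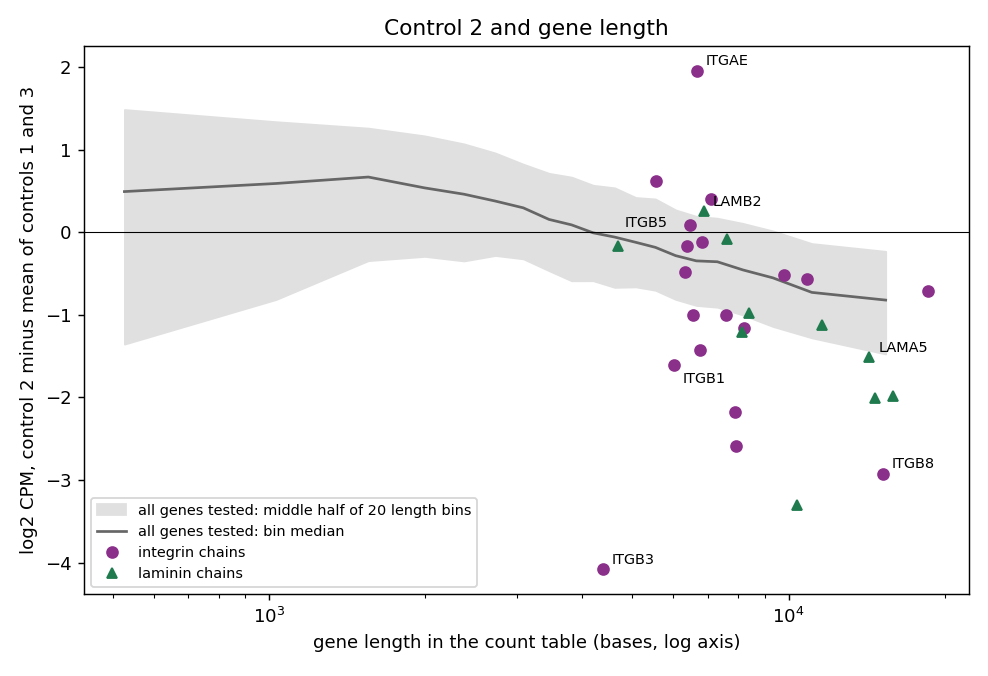
Log2 CPM in control 2 minus the average of the other controls against gene length in bases on a log axis. The line is the median of all genes tested in 20 length bins and the grey band their middle 50%. Circles are integrin chains and triangles laminin chains, and 24 of 29 lie below 0.

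**Figure D5:**
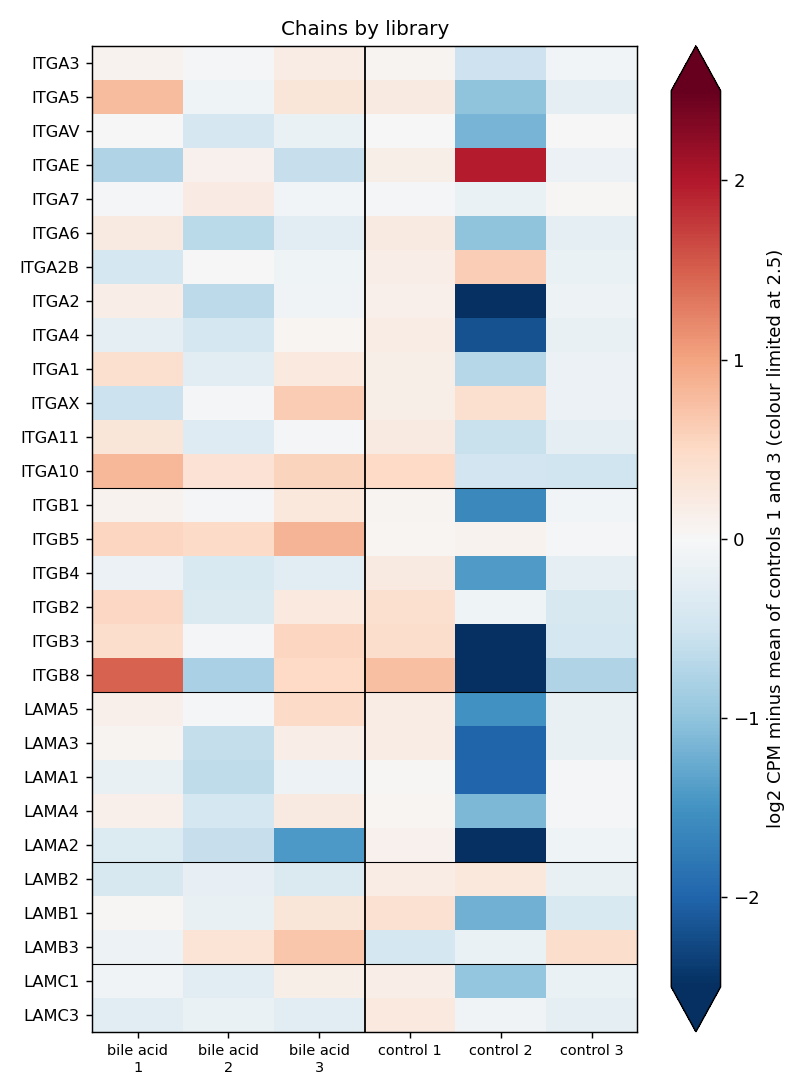
Log2 CPM of each chain minus the mean of controls 1 and 3, with red for higher and blue for lower and the colour limited at 2.5. Columns are bile acid libraries 1 to 3 and controls 1 to 3. The column of control 2 is blue for 24 of 29 chains and red for ITGAE, and ITGB5 is red in the 3 bile acid columns.

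Genes that work with these chains were described from 5 lists. Among 37 adaptor and signalling genes that connect integrins to actin, 35 were tested, 29 had a positive log2 fold change with 6 libraries (48.8% of all genes) and 24 without control 2 (50.8% of all genes), and the medians were 0.21 and 0.13. Bile acid libraries lay above all controls for 6, ACTN1, BCAR1, TNS2, TNS4, VASP and ZYX, with 6 libraries (5.29% of all genes), and below them for 0. Without control 2 they lay above for 7, CSRP1 being added (12.6% of all genes), and below for 3, FERMT1, SRC and TLN2 (12.1% of all genes). edgeR called none of the list in either set, and DESeq2 called 0 in either. At an unadjusted p under 0.05 edgeR had 5 of the list with 6 libraries (3.31% of all genes) and 9 without control 2 (7.98% of all genes). TNS4, a tensin that binds integrin beta tails, had 84.3, 28.4 and 60.5 CPM in bile acid libraries 1 to 3, against 28.1, 11.4 and 16.1 CPM in controls 1 to 3, a log2 fold change of 1.64 ± 0.47 (SE, edgeR adjusted p = 0.911) and, without control 2, 1.39 ± 0.39. ACTN1, the actin cross-linker alpha-actinin, had 563, 341 and 513 CPM in bile acid libraries 1 to 3, against 305, 145 and 299 CPM in controls 1 to 3, with 0.92 ± 0.34 and, without control 2, 0.66 ± 0.20. BCAR1, a scaffold that is phosphorylated at focal adhesions, had 104, 93.5 and 99.1 CPM in bile acid libraries 1 to 3, against 68.9, 63.4 and 78.9 CPM in controls 1 to 3, with 0.49 ± 0.17 and, without control 2, 0.43 ± 0.14. In all 3 genes each bile acid library was above each control, though bile acid library 2 of TNS4 only barely.

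Ligands and other basement membrane genes also had lower medians once control 2 was left out. Among 22 tested integrin ligands outside the basement membrane, the median was 0.26 with 6 libraries and 0.06 without control 2, and 19 and 12 were positive. CTGF, CYR61, LTBP1 and TGFB1 lay higher in all bile acid libraries than in all controls, 4 of 22 with 6 libraries (5.29% of all genes) and 4 of 22 without control 2 (12.6% of all genes). VTN, the gene of vitronectin, lay lower in all bile acid libraries without control 2 (12.1% of all genes), at -0.64 ± 0.38 on the log2 scale, against -0.28 ± 0.55 with 6 libraries. CTGF, a matricellular ligand of several integrins, had 681, 51.1 and 113 CPM in bile acid libraries 1 to 3, against 21.8, 31.6 and 18.2 CPM in controls 1 to 3, and bile acid library 1 exceeded the other 5. CTGF had a log2 fold change of 3.56 ± 0.93 (SE, edgeR adjusted p = 0.911) and, without control 2, 3.83 ± 0.92. CYR61, its close relative, had 842, 109 and 218 CPM in bile acid libraries 1 to 3, against 83.7, 88.7 and 57.4 CPM in controls 1 to 3, with a log2 fold change of 2.35 ± 0.71 with 6 libraries and 2.48 ± 0.69 without control 2, and bile acid library 1 was again the highest. TGFB1, whose latent form is bound by ITGAV receptors, had 95.3, 109.7 and 111 CPM in bile acid libraries 1 to 3, against 69.8, 82.3 and 75.04 CPM in controls 1 to 3, a log2 fold change of 0.47 ± 0.17 (SE, edgeR adjusted p = 0.911) and, without control 2, 0.55 ± 0.14. Among 22 tested basement membrane genes other than laminins, the median was 0.25 with 6 libraries, and without control 2 it was 0.0019 over 23. NTN4 and TINAGL1 lay higher in all bile acid libraries in both sets, 2 of 22 (5.29% of all genes) and 2 of 23 (12.6% of all genes). FREM2 lay lower without control 2, 1 of 23 (12.1% of all genes). TINAGL1, a secreted matrix protein of basement membranes, had 74.04, 75.96 and 86.6 CPM in bile acid libraries 1 to 3, against 49.7, 36.2 and 48.4 CPM in controls 1 to 3, with a log2 fold change of 0.82 ± 0.20 (edgeR adjusted p = 0.911) and, without control 2, 0.70 ± 0.14. DESeq2 called it without control 2 (adjusted p = 0.00459) and not with 6 libraries (adjusted p = 0.375).

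How many of the other receptor genes separated the groups depended on control 2. Of 8 tested hemidesmosome genes and other laminin receptors, 4 were positive with 6 libraries, and BCAM, a laminin receptor that binds LAMA5, lay lower in all bile acid libraries (4.89% of all genes). Without control 2, 6 of 9 were positive, BCAM again lay lower (12.1% of all genes), and SDC4, a syndecan, lay higher (12.6% of all genes), at 0.56 ± 0.16 on the log2 scale against 0.20 ± 0.29 with 6 libraries. BCAM had 119.7, 145 and 148 CPM in bile acid libraries 1 to 3, against 194, 155 and 168 CPM in controls 1 to 3, a log2 fold change of -0.32 ± 0.19 (SE, edgeR adjusted p = 0.911) and, without control 2, -0.39 ± 0.15. Of 8 tested membrane partners of integrins, 3 were positive with 6 libraries and 7 without control 2. None separated the groups with 6 libraries, while without control 2 CD47, CD63, CD9 and PLAUR, 4 of 8, lay higher in all bile acid libraries (12.6% of all genes). CD9 and CD63, tetraspanins that bind integrins, were at 0.43 ± 0.14 and 0.46 ± 0.16 on the log2 scale without control 2, against 0.033 ± 0.29 and -0.24 ± 0.43 with 6 libraries. PLAUR, the urokinase receptor, had 34.7, 27.01 and 30.2 CPM in bile acid libraries 1 to 3, against 18.9, 28.4 and 16.9 CPM in controls 1 to 3, and control 2 lay among the bile acid libraries. DESeq2 called PLAUR without control 2 (adjusted p = 0.0122), while edgeR gave 0.79 ± 0.17 (SE) with an adjusted p of 0.243, and 0.52 ± 0.25 with 6 libraries. Fibroblast and mesenchymal markers were set beside these lists: the 6 fibroblast markers summed to 94.2 to 232.7 CPM with bile acids and 42.9 to 193 CPM in controls, nearly all from COL1A1 with COL3A1 at 0, and the 6 mesenchymal markers to 314 to 362 CPM with bile acids and 236 to 286 CPM in controls. Their part in the results was not tested.

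In the authors' deposited table of bile acid against control, 28 of the 37 chains have an adjusted p-value and none is called, among 19 genes called in the table, and 23 of the 28 have a positive log2 fold change. ITGB5 stands there at a log2 fold change of 0.63 with an adjusted p-value of 0.640, in the authors' deposited table. The authors' deposited gene set table lists 2196 terms, of which 7 name integrins or the basement membrane, with normalized enrichment scores of 1.65 to 2.03. The adjusted p-values of these 7 in the authors' gene set enrichment ran from 0.000223 to 0.0327. For integrin-mediated signaling pathway the authors' deposited table counts 13 chains among the 49 leading genes. These leading chains are ITGA1, ITGA2, ITGA3, ITGA5, ITGA10, ITGAL, ITGB1, ITGB3, ITGB5, ITGB8, LAMA5, LAMB1 and LAMC1, and their fold changes include control 2. Of these, ITGAL is a trace chain, with 4, 2 and 4 counts with bile acids and 1, 0 and 1 in controls 1 to 3. ITGAL has no adjusted p-value in the authors' comparison of single genes.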

How the data were processed

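RNA-seq of 3 bile acid and 3 control libraries was used, with groups from the labels. The members and the lists were chosen with earlier results of these data known. The submitters' processing notes name the tools HISAT2 2.0.5, featureCounts and DESeq2 and the build GRCh38, but not what each did. The counting annotation and its use of strand are not given in the sources used here, but coordinates and lengths of all 37 genes equal GENCODE release 29. The deposited table holds read counts per gene, whole numbers without normalization. The authors also deposited FPKM values, and a normalized count signal that gave whole reads for 100% of values within 0.001 over 31530 genes. On these recovered reads edgeR called 0 genes. Per the file headers, the authors' comparison table holds log2 fold changes, test scores and p-values, and their gene set table holds enrichment scores and other values such as term size.

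Bile acid and control libraries were compared by quasi-likelihood fits in edgeR 4.0.16, run in R 4.3.3, with TMM scaling and filterByExpr, over all genes, without covariates. The Benjamini-Hochberg threshold was 0.05. Standard errors were derived from the fold change and its F statistic. The fit was checked on simulated counts. Totals were 21006677 to 28497721 counts per library. Alternatives were DESeq2 1.42.0, limma-voom (limma 3.58.1), other scalings and filters, FPKM on a log2 scale, a replicate block, a length trend removed by lowess (span 0.3), recovered reads and each library left out. DESeq2 on recovered reads was added after seeing the data. Values per library are given for chains whose groups do not overlap and for the 3 highest in each role by mean FPKM, and other chains by range. Of each partner list, called genes are named, otherwise up to 3 that do not overlap with the smallest edgeR p. ITGAE, ITGA2B, ITGB3, ITGB8, the other chains given per library and the partner genes VTN, SDC4, CD9 and CD63 were chosen after their values were seen. Promoter sequences are from RefSeq (GRCh38.p14).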

Additional observations from a re-analysis of the deposited data

How the results depend on the processing

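No chain was called by edgeR or limma under any alternative, and the median log2 fold change of the 29 chains of the main test lay between 0.0089 and 0.44 (log2), the lowest without control 2. Over the 30 chains tested without control 2, ITGA9 included, it was -0.0012. The number of genes called over the whole table was 14 by DESeq2, 148 by DESeq2 without control 2, 19 by DESeq2 on recovered reads and, leaving out 1 library at a time, 0 to 1 by edgeR, against 0 in the main test. DESeq2 without control 2 called 1 chain and 2 partner genes, and leaving out any 1 library with edgeR called 0 of either. The count of silent chains was 7 with a limit of 10 counts and 9 below 0.1 FPKM, against 4. Of 652 alternative values of single chains, 611 kept their direction and side of the threshold, 1 (ITGB5) passed it, and 40, over 12 chains, changed sign. Without control 2, DESeq2 gave -0.15 for ITGA2, -0.20 for ITGA4, -0.20 for ITGA6, -0.010 for ITGA11, -0.17 for ITGAV, 0.098 for ITGAX, -0.27 for ITGB4, -0.29 for LAMA1, -0.087 for LAMA3 and -0.063 for LAMC1. With the length trend removed and no control 2, values were -0.14 for ITGA2, -0.18 for ITGA4, -0.20 for ITGA6, -0.15 for ITGAV, 0.11 for ITGAX, -0.26 for ITGB4, -0.22 for LAMA1, -0.029 for LAMA3 and -0.038 for LAMC1. With the trend removed and 6 libraries, ITGA6 was -0.0019. LAMA2, with 0 counts in control 2, was 0.41 in limma-voom. Leaving out 1 library at a time, the log2 fold changes ran from -0.031 to 0.40 for ITGA11, -0.15 to 0.73 for ITGA2, -0.20 to 0.66 for ITGA4, -0.20 to 0.37 for ITGA6, -0.17 to 0.30 for ITGAV, -0.43 to 0.19 for ITGAX, -0.016 to 0.43 for ITGB2, -0.27 to 0.44 for ITGB4, -0.29 to 0.40 for LAMA1, -0.81 to 0.25 for LAMA2, -0.088 to 0.74 for LAMA3 and -0.064 to 0.45 for LAMC1. Except where values given here show it, the cause was not tested.

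Deviations of same-numbered libraries correlated at 0.307, 0.382 and 0.098. Bile acid libraries 1 and 2 correlated best with the control of the same number, while bile acid library 3 correlated better with control 1 (0.144). The other values ran from -0.413 to 0.189. The labels state no pairs and the main fit used none, but these values do not settle whether the numbers are pairs. A fit with the replicate block called 0 genes and 0 chains. It had 1109 genes at an unadjusted p under 0.05, against 588 in the main fit. The median of the chains was 0.31 in the block fit, and LAMA2 was at 0.036. The trace chains had 0 to 18 counts per library and LAMA2 0 to 21, so differences in these chains, ITGA9 without control 2 included, could be estimated only with large errors.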
